A study of Mus musculus with 24 samples.

Results

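The interleukins and interleukin receptors are taken here as the 83 genes whose symbol starts with Il and a digit, out of the 49568 rows in each of the 2 expression tables of the study. One table holds cells freshly sorted from healthy mouse liver (homeostasis) and the other holds cells kept in transwells. The set also takes in a few relatives that are neither a ligand nor a receptor, such as Il18bp, which binds and neutralises IL-18, and Il4i1, an amino acid oxidase. A single gene model was found for 82 of the 83. The exception, Il11ra2, is a near-identical copy of the IL-11 receptor gene Il11ra1 and is listed at 0 throughout, so the values of Il11ra1 are uncertain to the extent that reads match both.

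For the homeostasis experiment, EpCAM+ ductal cells (DCs, the epithelium of the bile ducts) and the 3 stromal fractions PDGFRa+SCA1+, PDGFRa+SCA1- and PDGFRa-SCA1+ were sorted from the same 3 littermates (males A and E and female F, aged 12 weeks), which gives n = 3 mice per population. All of these mice were on a C57BL/6 background and heterozygous for B6.129S4-Pdgfratm11(EGFP)Sor/J, a nuclear GFP reporter placed in 1 copy of Pdgfra, and the GFP stood for PDGFRa in the sort. Cells positive for CD45, CD11b or CD31 were sorted out. Per the methods of the study, livers were digested with enzymes for hours and dissociated into single cells before sorting. The part of this step in the values of freshly sorted cells was not tested. For the transwell experiment, DCs and mesenchymal cells sorted on SCA1 but not on PDGFRa (SCA1+Msc) came from wild type C57BL/6 mice aged 8 to 12 weeks, with n = 2 samples per group. The DCs were sequenced at day 0, after 15 days as organoids in expansion medium (EM organoids) and after 15 days in a transwell shared with SCA1+Msc (co-cultured organoids). The SCA1+Msc were sequenced at day 0 and at day 15, either cultured alone or below DCs in the shared transwell. Per the methods of the study, the SCA1+Msc of the transwells were first expanded in culture for 7 days. EM is rich in growth factors and the co-culture medium is not, so between the 2 kinds of organoid the effects of medium and of mesenchyme cannot be told apart. The study describes the samples of a transwell group as biological replicates from littermates, while the labels do not tie each sample to an animal, so these p-values measure the spread between the samples as labelled.

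Interleukins are secreted messengers that are read by receptors on the surface of the same or of neighbouring cells. IL-6 and IL-11 bind a private receptor chain (Il6ra or Il11ra1) and signal through the shared chain Il6st to JAK kinases and STAT3, a route well known from the acute-phase response and regeneration of the liver. IL-1α, IL-1β, IL-33 and the IL-36 cytokines bind receptors that use the shared chain Il1rap and signal through MyD88 to NF-κB, and Il1rn encodes a secreted antagonist that occupies the IL-1 receptor without activating it.

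The 300 bases around the starts of 3 genes are shown because these genes carried the clearest differences between the populations: Il6 and Il11 were the mesenchymal ligands with the largest differences from DCs, and Il1rn took the largest share of the members' summed values in DCs. The sequences are RefSeq on GRCm38.p6, run 5′ to 3′ on the strand of the gene and cover 250 bases before and 50 after the start. Il6 lies at chr5:30012864-30013163 (plus strand), Il11 at chr7:4782808-4783107 (minus strand) and Il1rn at chr2:24336610-24336909 (plus strand). Capitals mark matches to the motifs searched, on either strand.
Il6: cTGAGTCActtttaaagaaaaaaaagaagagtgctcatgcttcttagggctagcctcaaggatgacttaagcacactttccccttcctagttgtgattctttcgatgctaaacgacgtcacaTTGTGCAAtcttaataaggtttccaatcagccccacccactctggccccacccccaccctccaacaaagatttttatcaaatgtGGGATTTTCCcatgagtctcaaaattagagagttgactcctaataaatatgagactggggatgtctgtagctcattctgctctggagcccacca
Il11: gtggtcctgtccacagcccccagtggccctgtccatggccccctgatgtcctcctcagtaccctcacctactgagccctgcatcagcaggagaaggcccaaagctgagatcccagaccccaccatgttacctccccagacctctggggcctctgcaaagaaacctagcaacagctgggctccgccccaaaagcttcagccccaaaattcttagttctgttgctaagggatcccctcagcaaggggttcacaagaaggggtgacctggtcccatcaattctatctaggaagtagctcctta
Il1rn: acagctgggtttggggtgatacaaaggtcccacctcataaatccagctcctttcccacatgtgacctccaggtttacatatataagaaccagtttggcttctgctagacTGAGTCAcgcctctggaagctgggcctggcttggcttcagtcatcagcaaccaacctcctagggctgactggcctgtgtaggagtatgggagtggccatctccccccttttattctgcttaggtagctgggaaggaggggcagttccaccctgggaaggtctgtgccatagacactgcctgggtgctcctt
The Il6 window holds the AP-1 letters TGANTCA from base -249 to base -243 before the start, a C/EBP match (TTGCNNAA, read on the minus strand) from -128 to -121 and the NF-κB letters (GGGA, any 2 bases, TTCC) from -44 to -35. The Il1rn window holds 1 AP-1 match from -141 to -135, and none of the letters searched were found in the Il11 window. Of 27025 mouse promoters of this length, 7.93% held the AP-1 letters, 10.8% the C/EBP letters and 1.43% the NF-κB letters. The other motifs searched were CRE (TGACGTCA, 1.88% of promoters), STAT (TTCNNNGAA, 8.47%) and the TATA letters TATAAA (14.2%), and a match only describes the letters.

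Values are given as deposited for the homeostasis experiment, where they carry the name TPM but were divided by totals that shift from row to row, so that each lies between 0.722 and 1.39 times its TPM. For the transwell experiment they are TPM, made here from the deposited RPKM. Depth recovered from the low values was 19.6 M to 25.7 M reads per sample for homeostasis and 19.3 M to 28.0 M for the transwell samples. Against marker genes, the labels held with these reservations. The PDGFRa-SCA1+ fraction carried endothelial markers (5 of 5 present, summed values 2318 to 2532 in its 3 samples against at most 19.4 in the PDGFRa+ fractions), although CD31+ cells had been sorted out and Pecam1, the gene of CD31, read 726, 732 and 929. Its sample from mouse F stood apart for leukocyte markers, with a sum over 15 genes of 728 against 339 and 334 in mice A and E and a value of 75.2 for Ptprc, the gene of CD45, against 3.10 and 0.224. Its sample from mouse E stood apart for ductal markers, with a sum of 3706 against 79.2 and 314 in mice A and F, and for hepatocyte markers, with 6502 against 2713 and 1989. The PDGFRa+SCA1+ sample of mouse E also had more hepatocyte markers, at 1667 against 216 and 218. Sorted DCs held hepatocyte markers as well, at sums of 5888, 6999.5 and 6158 in mice A, E and F. The part of these markers in the differences from DCs was not tested. The SCA1+Msc at day 0 held hepatocyte markers at a summed TPM of 16801 to 21579 and ductal markers at 1156 to 2417, against 4277 to 5432 and 49720 to 51709 in DCs at day 0. Their endothelial markers summed to 189 and 209 TPM, against 24.7 and 25.9 TPM in DCs at day 0.

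Of the 83 genes, 44 reached 1 in 3 or more homeostasis samples and were tested there, and 54 reached 1 TPM in 2 or more transwell samples and were tested there. The other 39 and 29 were not tested. In all 24 samples, 12 members were listed at 0, among them the cytokines Il3, Il9, Il17a, Il22 and Il25 and the IL-23 receptor Il23r. Between 30 and 47 members had a mean of at least 1 in a given group, and only between 1 and 8 had a mean of at least 100. In sorted DCs the antagonist Il1rn took 37.4% of the summed values of all members, and in SCA1+Msc at day 0 Il6 took 58.3%.

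**Figure D1:**
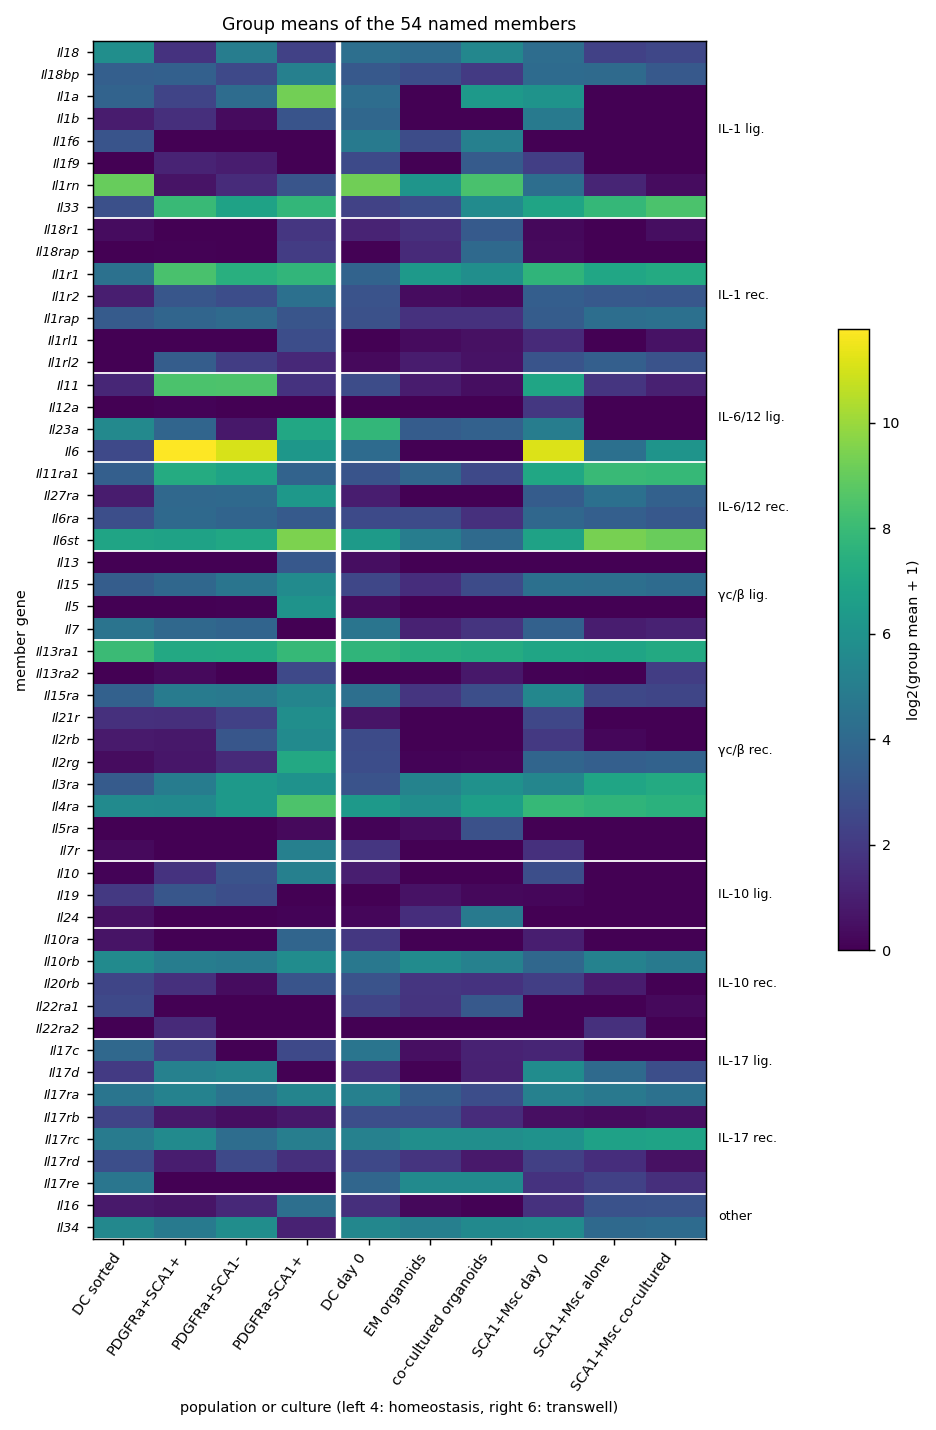
Level of the 54 members named by rule (rows, by family) in the 4 sorted populations and the 6 transwell groups (columns), as log2(group mean + 1) over 3 or 2 samples, with brighter cells for higher levels. The 2 experiments are on different scales, so colours compare within an experiment. Il6 is brightest in the PDGFRa+ fractions and in SCA1+Msc at day 0, and Il1rn in the DCs.

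In the sorted populations, PDGFRa+SCA1+ cells, the mesenchyme next to the duct, were set against DCs. The question was which cytokines and receptors they hold as freshly sorted cells that DCs do not. Of the 44 tested members, 9 were higher in PDGFRa+SCA1+ cells and 6 lower. Over all 17028 genes tested, 9.85% were called higher and 14.0% lower. The members' median log2 difference was 0.04, against -0.28 over all genes. Of the 15 calls, 12 held in every alternative run, 7 higher and 5 lower, and without the PDGFRa+SCA1+ sample of mouse E there were 13 calls. Called here means a Benjamini-Hochberg adjusted p under 0.05 in limma's moderated test on log2(value + 1), and every fold or difference on a log2 scale below is on that scale.

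Among the ligands, Il6 had the largest difference. Its values for mice A, E and F were 1801, 2624 and 6095 in PDGFRa+SCA1+ cells, 862, 1995 and 3602 in PDGFRa+SCA1- cells, 56.5, 85.8 and 79.8 in PDGFRa-SCA1+ cells and 4.65, 6.97 and 3.82 in DCs. The 4 populations thus fell into 3 levels that did not overlap, with both PDGFRa+ fractions above PDGFRa-SCA1+ cells and DCs lowest in every mouse. The difference from DCs was 9.0 (SE 0.51, limma adjusted p = 1.7e-07), which is a 682-fold difference in the means, 3507 ± 2279 against 5.15 ± 1.63 (SD, n = 3). Il11, the other ligand that signals through Il6st, read 177, 295 and 582 in PDGFRa+SCA1+ cells, 111, 191 and 755 in PDGFRa+SCA1- cells, and at most 6.18 in any sample of the other fractions. It was 7.36 higher than in DCs (SE 0.86, limma adjusted p = 5.1e-05).

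Il33, an alarmin stored in the nucleus of barrier and stromal cells, read 180, 218 and 354 in PDGFRa+SCA1+ cells and 8.66, 6.61 and 3.97 in DCs. All 3 stromal fractions were above every DC sample, and the difference for PDGFRa+SCA1+ cells was 5.08 (SE 0.39, limma adjusted p = 1.9e-06). Il17d, a member of the IL-17 family, was also higher in PDGFRa+SCA1+ cells, at 35.4 ± 27.5 against 3.05 ± 2.04 (SD, n = 3, 2.99 on the log2 scale, limma adjusted p = 0.012). This call was lost without the DC sample of mouse A or the PDGFRa+SCA1+ sample of mouse F, where the adjusted p by limma reached up to 0.063. In bulk samples of this kind, fewer cells that express a gene and less of its RNA in each cell cannot be told apart.

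DCs were the higher side for Il1rn, the soluble antagonist of IL-1. Its values were 535, 533 and 528 in the 3 DC samples and 0.0486, 1.38 and 0.225 in PDGFRa+SCA1+ cells. The difference was -8.52 (SE 0.94, limma adjusted p = 3.0e-05). Il18, a cytokine matured by caspase 1 and known from epithelia, read 80.6, 54.4 and 30.9 in DCs and 0, 1.45 and 5.62 in PDGFRa+SCA1+ cells (-4.37, SE 0.96, limma adjusted p = 0.0053). Il1f6, which encodes IL-36α, read 5.97, 7.63 and 8.28 in DCs and was listed at 0 in all 9 stromal samples. Against the floor of 3 reads per library, that is at least 13.0-fold lower in PDGFRa+SCA1+ cells (limma adjusted p = 3.6e-05).

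**Figure D2:**
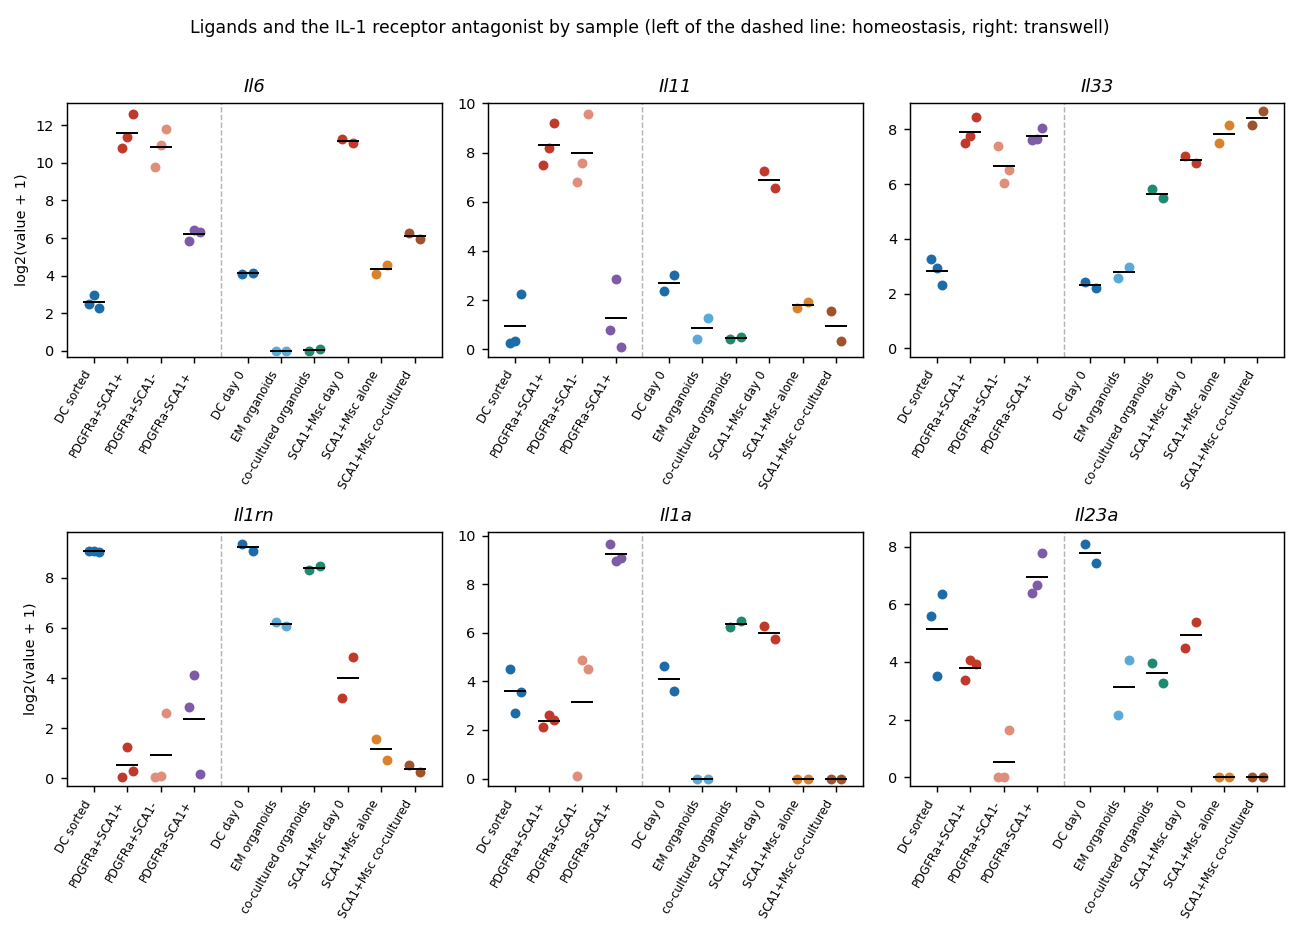
Values of 5 ligands and of the antagonist Il1rn in every sample, on a log2(value + 1) axis, by population or culture group, with 1 point per sample and a black line at the mean of the log2 values. Left of the dashed line are the sorted populations and right of it the transwell groups; Il6 and Il11 sit highest in the PDGFRa+ fractions and in SCA1+Msc at day 0, and Il1rn sits highest in the DCs.

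Among the receptors, Il1r1, the signalling receptor for IL-1, read 215, 321 and 477 in PDGFRa+SCA1+ cells and 27.8, 16.8 and 14.9 in DCs, a difference of 4.0 (SE 0.52, limma adjusted p = 1.1e-04). Of the 4 populations, DCs thus had the highest level of the antagonist and the lowest of its receptor. Il11ra1 read 146, 135 and 177 in PDGFRa+SCA1+ cells and 9.96, 15.7 and 6.71 in DCs (3.77, SE 0.35, limma adjusted p = 8.6e-06), so the PDGFRa+ fractions held both IL-11 and its receptor chain. The other higher receptors were Il1rl2, the receptor of the IL-36 cytokines, at 13.6, 7.13 and 9.94 against at most 0.0210 in DCs, and Il27ra, the IL-27 receptor, at 14.9, 12.3 and 17 against 1.12, 0 and 1.55 (limma adjusted p = 0.0070 and 0.0018). Il3ra, the IL-3 receptor chain, was called at 29.6 ± 7.44 against 9.57 ± 7.04 (SD, n = 3), but not with the mouse as a block (limma adjusted p = 0.044 and 0.069). Both it and the sixth lower member, Il17rd, lost their call in 8 of 11 alternatives.

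DCs in turn held Il17re, the receptor chain for IL-17C, at 30.7, 15.9 and 25.5, with no sample of the 3 stromal fractions above 0.0235 (limma adjusted p = 6.1e-06 for PDGFRa+SCA1+ cells). Il17c itself read 6.60, 19.8 and 17.2 in DCs, 4.49, 2.13 and 4.81 in PDGFRa+SCA1+ cells and 14.9, 0 and 0 in PDGFRa-SCA1+ cells, neither of which was called, and it was listed at 0 in PDGFRa+SCA1- cells, at least 24.5-fold lower (limma adjusted p = 0.0090). Il22ra1, the IL-22 receptor of epithelial cells, read 6.34, 4.51 and 4.31 in DCs and was listed at 0 in all 9 stromal samples, at least 28.5-fold lower (limma adjusted p = 1.1e-04 for PDGFRa+SCA1+ cells). In homeostasis Il1f6, Il17re and Il22ra1 passed the filter only through the DCs, the group where they are high. Their stromal samples at or near 0 add almost no spread to the shared estimate, so these p-values do not measure the spread of the DCs alone. The IL-22 gene was listed at 0 in all 24 samples. The shared chain Il6st did not separate DCs from the PDGFRa+ fractions, with values between 96.2 and 150 in those 9 samples.

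**Figure D3:**
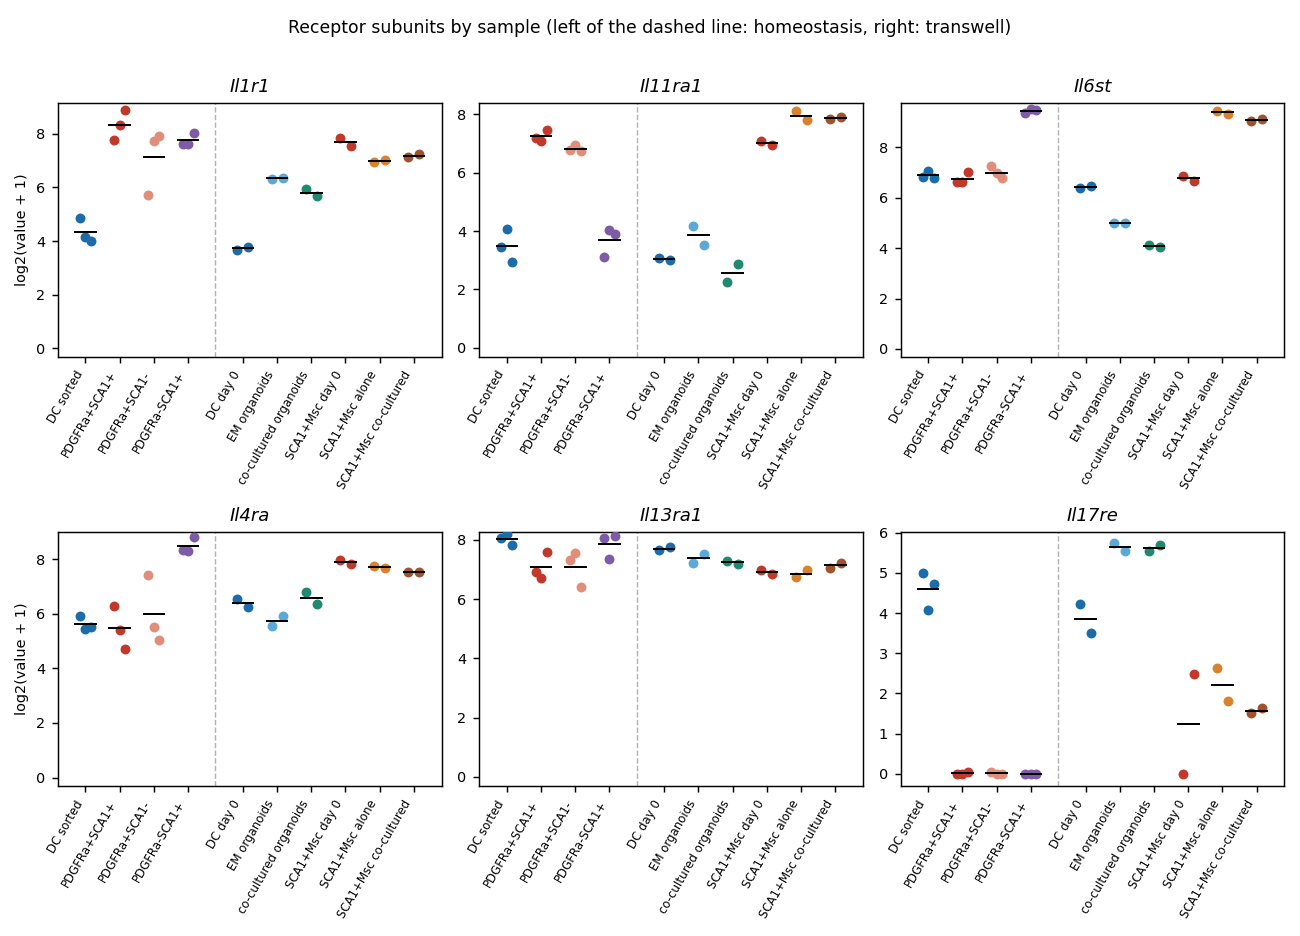
Values of 6 receptor genes in every sample, on a log2(value + 1) axis, by population or culture group, with 1 point per sample and a black line at the mean of the log2 values. Il1r1 is higher in the stromal fractions than in DCs, Il11ra1 in the PDGFRa+ fractions and in all SCA1+Msc groups, and Il6st is highest in PDGFRa-SCA1+ cells and in cultured SCA1+Msc.

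The PDGFRa+SCA1- cells, which hold the remaining PDGFRa+ mesenchyme, gave 8 members higher and 8 lower than DCs, against 9.98% and 18.9% of all genes. Their median was 0.19, against -0.47 over all genes, and 14 of the 16 calls held in every alternative run. The higher members were Il6, Il11, Il33, Il11ra1, Il17d, Il3ra, Il27ra and Il1r1, with differences between 2.80 (Il1r1) and 8.26 (Il6). Il23a, which encodes the p19 chain of IL-23, was lower in PDGFRa+SCA1- cells, at 0, 0 and 2.08 against 47.4, 10.5 and 80.6 in DCs (-4.62, SE 0.71, limma adjusted p = 4.2e-04). These comparisons share the DC samples, so they are not independent of each other.

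Set directly against each other, the 2 PDGFRa+ fractions gave no call in limma for any of the 44 members, although 10 had an unadjusted p under 0.05. Over all 17028 genes, 1985 had an unadjusted p under 0.05. Of all genes, 0.435% were called higher and 0.153% lower in PDGFRa+SCA1+ cells. Il6 read 3507 ± 2279 and 2153 ± 1377 (SD, n = 3), with samples of the 2 fractions overlapping. Without the PDGFRa+SCA1- sample of mouse E 1 member was called, Il17rc, and without that of mouse F 2 were, Il1rl2 and Il23a, all higher in PDGFRa+SCA1+ cells. These 3 were named after their values were seen.

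The PDGFRa-SCA1+ fraction, which carried the endothelial markers above, differed most. Of the 44 members, 12 were higher and 8 lower than in DCs, against 11.5% and 11.3% of all genes, with a median of 0.93 against -0.04 over all genes. Against PDGFRa+SCA1+ cells, 8 were higher and 6 lower, against 10.9% and 7.86% of all genes, with a median of 0.51 against 0.25. In every alternative run, 17 of the 20 calls and 11 of the 14 held. Without the sample of mouse F the called members numbered 19 and 13, and without that of mouse E 19 and 14. In the sample of mouse E, which had the most ductal markers of the 3, Il1rn was also highest, at 16.3 against 6.11 and 0.121.

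Il1a, which encodes IL-1α, was the leading ligand of this fraction. It read 812, 490 and 538 in mice A, E and F, against 3.29, 5.18 and 4.34 in PDGFRa+SCA1+ cells and 21.5, 5.50 and 10.8 in DCs. Every sample of the fraction was above every other homeostasis sample, and the difference from PDGFRa+SCA1+ cells was 6.85 (SE 0.99, limma adjusted p = 3.9e-04). Il6st read 652, 721 and 714, against 98.7, 96.2 and 128 in PDGFRa+SCA1+ cells, a difference of 2.69 (SE 0.21, limma adjusted p = 3.8e-06). Il4ra, the receptor chain of IL-4 and IL-13, read 324, 309 and 442 against 76.9, 40.9 and 25.4 (3.01, SE 0.54, limma adjusted p = 0.0020). On the lower side, Il7, a survival factor for lymphocytes, was listed at 0 in all 3 samples against 4.97, 14.2 and 25 in PDGFRa+SCA1+ cells, at least 183-fold lower, and Il34, a ligand of the CSF-1 receptor, read 0, 0.174 and 3.43 against 33.1, 24 and 24.3 (limma adjusted p = 6.7e-04 and 5.6e-04).

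Several members were high in 1 sample of this fraction. Il2rg, the common gamma chain of the lymphocyte interleukin receptors, read 71.2 and 73.2 in mice A and E and 270 in mouse F, against at most 0.901 in PDGFRa+SCA1+ cells (6.17, SE 0.78, limma adjusted p = 1.4e-04), and without mouse F it was still called against DCs, at 5.83 (limma adjusted p = 3.5e-04). Il5, which recruits eosinophils, read 0, 10.6 and 183. Il7r read 1.53, 0 and 99.2, Il2rb 0, 4.40 and 143, Il21r 11.6, 6.14 and 150, and Il13 0, 0.125 and 25.2. These 5 genes were far higher in mouse F than in the other mice, in the sample with the raised leukocyte markers, and the part of leukocytes in them was not tested. Il10 stood out in another sample, at 101 in mouse A against 0.277 and 0 in mice E and F. The calls of Il15 and Il27ra against PDGFRa+SCA1+ cells were lost without mouse F (limma adjusted p = 0.14 and 0.054). Without mouse F that of Il1r2 against DCs was lost too (limma adjusted p = 0.15), while that of Il17rb against DCs was kept. With the mouse as a block the same call of Il15 was lost (limma adjusted p = 0.067). So were those of Il1r2 and Il17rb against DCs (limma adjusted p = 0.073 and 0.061). Of 11 alternatives, these calls were lost in 9 for Il15, 9 for Il1r2, 10 for Il17rb and 3 for Il27ra.

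**Figure D4:**
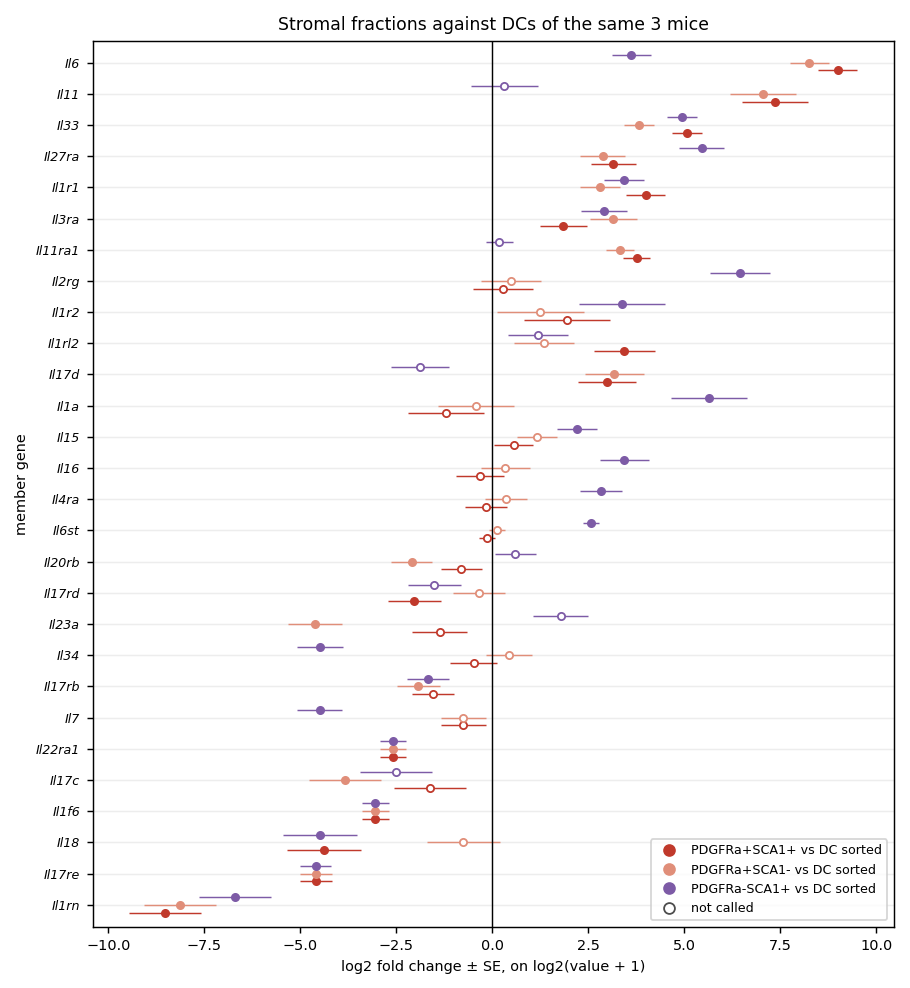
Differences of the 3 stromal fractions from DCs, in log2(value + 1), for the members called in at least 1 of these comparisons, with bars for the standard error and open circles where a member was not called. Il6 and Il11 lie furthest to the right for the PDGFRa+ fractions and Il1rn furthest to the left; where a group is at 0, the fitted value depends on the added 1.

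Genes that act with these members but carry other names were counted as 3 lists. Of 15 JAK, STAT and SOCS genes, 7 were higher and 0 lower in PDGFRa-SCA1+ cells than in DCs, with a median of 1.54 against -0.04 over all genes, where 11.5% were higher and 11.3% lower. Socs3, which STAT3 induces and which in turn blocks Il6st, read 3786, 3725 and 2816 there, 877, 1074 and 911 in PDGFRa+SCA1+ cells and 166, 146 and 96.0 in DCs. In PDGFRa+SCA1+ cells 3 genes of this list were higher than in DCs and 2 lower, against 9.85% and 14.0% of all genes, and in PDGFRa+SCA1- cells 4 and 2, against 9.98% and 18.9%. Of 17 MyD88 and NF-κB genes, 2 were higher and 4 lower in PDGFRa+SCA1+ cells than in DCs, the higher count being near the share of all genes. Of 17 ligands and receptors without an Il name, 15 were tested, with 6 higher and 3 lower in the same comparison and a median of 0.90 against -0.28 over all genes. Tslp, an alarmin related to IL-7, read 585, 946 and 968 in PDGFRa+SCA1+ cells and at most 0.822 in DCs (9.09, SE 0.51, limma adjusted p = 1.4e-07). Clcf1, an IL-6 family ligand that uses the receptor of CNTF, was the reverse, at 320, 285 and 345 in DCs and 17.8, 13.9 and 22.8 in PDGFRa+SCA1+ cells, while the CNTF receptor gene Cntfr read 298, 289 and 294 in PDGFRa+SCA1+ cells and at most 1.09 in DCs.

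In the transwell experiment, the freshly sorted cells allowed a similar contrast in other mice. It was not the same one, since SCA1+Msc were not sorted on PDGFRa and could include PDGFRa-SCA1+ cells. Of the 54 tested members, 21 were higher and 10 lower in SCA1+Msc at day 0 than in DCs at day 0, against 21.4% and 24.7% of 18136 genes, with a median of 0.05 against -0.07 over all genes. Of the 15 members called between PDGFRa+SCA1+ cells and DCs and the 31 called here, 13 were shared, all in the same direction, which is 86.7% of the first list and 41.9% of the second. The 2 comparisons have no sample in common. The same overlap was not counted over all genes, so it is not shown to be particular to the members. Il6 read 2466 and 2160 TPM in SCA1+Msc and 16 and 16.8 TPM in DCs, a difference of 7.05 (SE 0.21, limma adjusted p = 3.5e-08). Il11 read 151 and 92.8 against 4.16 and 7.07 TPM, Il33 130 and 107 against 4.43 and 3.60 TPM, and Il1r1 230 and 185 against 11.9 and 12.8 TPM.

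Il1rn was again the DC product, at 660 and 532 TPM against 8.13 and 27.9 TPM in SCA1+Msc (-5.19, SE 0.46, limma adjusted p = 1.7e-05). Il23a read 275 and 173 TPM in DCs and 21.4 and 40.5 TPM in SCA1+Msc (-2.85, SE 0.57, limma adjusted p = 0.0025). Il1a was higher in SCA1+Msc, at 76.0 and 52.6 against 23.5 and 11 TPM (1.90, SE 0.35, limma adjusted p = 0.0016). In homeostasis Il1a was high only in PDGFRa-SCA1+ cells, and PDGFRa+SCA1+ cells were not above DCs. Beside these values stand the hepatocyte, ductal and endothelial markers of the SCA1+Msc samples given above, whose part was not tested. Of the 31 calls, 23 held in every alternative run, 16 higher and 7 lower.

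After 15 days in EM, most of the tested members that changed had fallen. In EM organoids 6 members were higher than in DCs at day 0 and 23 lower, against 27.1% and 17.2% of all genes, with a median of -0.72 against 0.12 over all genes. With genes that were at 0 in a whole group set at their bound, the median was -1.12. Of these calls, 20 held in every alternative run, 4 higher and 16 lower.

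The 7 members with the largest fitted falls were 6 ligands and the antagonist Il1rn. Il23a fell from 275 and 173 TPM to 3.51 and 15.8 TPM (-4.65, SE 0.57, limma adjusted p = 1.4e-04). Il17c fell from 28.3 and 17.1 TPM to 0.780 and 0 TPM, and Il7 from 24.8 and 21.0 TPM to 0.495 and 1.85 TPM. Il1a and Il1b, the IL-1 ligands, were at 23.5 and 11 TPM and at 12.7 and 15.8 TPM in fresh DCs and were listed at 0 in both EM samples, at least 76.6-fold and 60.9-fold lower. Il6 went from 16 and 16.8 TPM to 0 in both, at least 89.4-fold lower. Il1rn fell from 660 and 532 TPM to 74.2 and 66.0 TPM (-3.06, SE 0.46, limma adjusted p = 5.5e-04).

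Receptor genes moved both ways. Il1r1 rose from 11.9 and 12.8 TPM to 79.7 and 80.4 TPM (2.61, SE 0.15, limma adjusted p = 1.3e-06) and Il3ra from 10.1 and 4.01 TPM to 34.8 and 40.0 TPM (2.36, SE 0.46, limma adjusted p = 0.0024). Il6st fell from 82.3 and 87.6 TPM to 30.7 and 30.5 TPM (-1.44, SE 0.11, limma adjusted p = 8.0e-06) and Il17ra, the shared IL-17 receptor chain, from 30.1 and 38.4 TPM to 8.97 and 10.3 TPM. The chains Il2rg and Il2rb, known from lymphocytes, also fell, from 8.66 and 2.95 TPM to 0 and 0.197 TPM and from 6.30 and 4.59 TPM to 0 in both samples. The leukocyte markers summed to 247 to 328 TPM at day 0 and to 33.0 to 40.0 TPM in EM organoids, and their part in these falls was not tested.

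Organoids grown with SCA1+Msc were set against the same DCs at day 0, so the values stand beside those of EM organoids. In them 8 members were higher and 21 lower, against 23.2% and 19.1% of all genes, and on RPKM as deposited 12 were higher and 18 lower. The median was -0.57, or -0.67 at the bounds, against 0 over all genes, and 22 of the 29 calls held in every alternative run. Il23a was at 14.5 and 8.69 TPM, Il1b at 0 in both samples and Il6 at 0 and 0.0546 TPM, the latter a single read.

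Compared directly with EM organoids, 10 members were higher in co-cultured organoids and 4 lower, against 5.73% and 7.21% of all genes, with a median of 0 against -0.13. With quantile normalization 11 were higher and 2 lower. The 10 higher members included 5 of the 9 tested ligands and antagonists of the IL-1 family. Il1a had the largest difference, at 74.8 and 87.7 TPM against 0 in both EM samples, at least 360-fold higher (limma adjusted p = 8.0e-06). In the co-cultured organoids it was also higher than in fresh DCs (2.26, SE 0.35, limma adjusted p = 7.1e-04). Il33 read 55.1 and 44.3 TPM in co-cultured and 4.91 and 6.94 TPM in EM organoids (2.88, SE 0.27, limma adjusted p = 1.6e-04), and Il24, an IL-10 family cytokine of epithelia, 30.9 and 22.7 TPM against 0.101 and 3.73 TPM (3.59, SE 0.56, limma adjusted p = 0.0029). Il18rap, a chain of the IL-18 receptor, read 14.8 and 15.3 TPM against 1.85 and 1.39 TPM (2.62, SE 0.29, limma adjusted p = 4.7e-04), and its ligand Il18 read 35.6 and 49.5 TPM against 12.4 and 19.9 TPM without a call.

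The antagonist Il1rn was higher in co-cultured organoids too, at 321 and 356 TPM against 74.2 and 66.0 TPM (2.26, SE 0.46, limma adjusted p = 0.012), as was Il1f6, at 34.3 and 34.7 TPM against 4.29 and 6.92 TPM (2.46, SE 0.47, limma adjusted p = 0.0081). Lower were Il1r1 and chains of the IL-6 and IL-11 receptors. Il6st read 16.4 and 15.7 TPM against 30.7 and 30.5 TPM (-0.89, SE 0.11, limma adjusted p = 8.3e-04), Il6ra 2.03 and 2.13 TPM against 6.62 and 4.46 TPM, and Il11ra1 3.72 and 6.32 TPM against 17 and 10.5 TPM. Il1r1 had means of 55.3 against 80.0 TPM (-0.53, limma adjusted p = 0.042), a call lost in 7 of 9 alternatives. Of the 14 calls, 6 held in every alternative run, namely those of Il1a, Il33, Il24, Il18rap, Il5ra and Il6st. The number of calls was 9 without EM replicate 1 and 7 without co-cultured replicate 1, and the calls of Il1rn, Il1f6, Il6ra and Il11ra1 were each lost without either of these samples (limma adjusted p up to 0.082, 0.069, 0.14 and 0.076). The call of Il1rn was also lost without either of the other samples, and those of Il1f6 and Il6ra without co-cultured replicate 2. Leukocyte markers summed to 217 and 111 TPM in the co-cultured organoids, and mesenchymal markers to 2.20 and 14.8 TPM against 19992 to 20847 TPM in SCA1+Msc at day 0. Hepatocyte markers summed to 252 and 440 TPM in the co-cultured organoids, to 2062 to 2243 TPM in EM organoids and to 4277 to 5432 TPM in DCs at day 0, and their part in these differences was not tested.

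Il6 and Il11, which had marked the SCA1+Msc at day 0, fell in culture. After 15 days alone, 9 members were higher and 19 lower than at day 0, against 27.4% and 17.5% of all genes, with a median of -0.24 (-0.37 at the bounds) against 0.19 over all genes. Il6 fell from 2466 and 2160 TPM to 16.2 and 22.7 TPM, 119-fold in the means (-6.84, SE 0.21, limma adjusted p = 4.6e-08), and Il11 from 151 and 92.8 TPM to 2.20 and 2.83 TPM (-5.09, SE 0.48, limma adjusted p = 3.0e-05). Il1a, Il1b and Il23a, at means of 64.3, 27.8 and 31.0 TPM at day 0, were listed at 0 in both cultured samples, at least 318-fold, 133-fold and 174-fold lower. Il33 did not follow, at 130 and 107 TPM at day 0 and 179 and 284 TPM after culture. It was called higher (0.93, SE 0.27, limma adjusted p = 0.019), but not without day 0 replicate 2, without the cultured replicate 2 or with quantile normalization (limma adjusted p up to 0.15).

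The shared chain Il6st went the other way. It rose from 115 and 101 TPM to 691 and 637 TPM (2.61, SE 0.11, limma adjusted p = 2.9e-07). Il11ra1 read 135 and 122 TPM at day 0 and 275 and 224 TPM after culture (0.94, SE 0.25, limma adjusted p = 0.013), a call lost without day 0 replicate 2 or the cultured replicate 1 (limma adjusted p up to 0.092). Il6ra, the private chain of the IL-6 receptor, was not called, at 13.3 and 15.2 TPM at day 0 and 10.4 and 11 TPM after culture. Il10rb, the shared chain of the IL-10 and IL-22 receptors, rose from 16.6 and 11.7 TPM to 38.7 and 33.5 TPM (1.31, SE 0.22, limma adjusted p = 0.0012). Il1r1 fell from 230 and 185 TPM to 122 and 129 TPM (-0.71, SE 0.15, limma adjusted p = 0.0033). Of the 28 calls, 17 held in every alternative run, 3 higher and 14 lower. The hepatocyte markers of these samples moved with these changes, from 16801 to 21579 TPM at day 0 to 2.20 to 19.1 TPM after culture. Ductal markers went from 1156 and 2417 TPM to 211 and 234 TPM, and endothelial markers from 189 and 209 TPM to 91.8 and 152 TPM. Leukocyte markers summed to 333 to 362 TPM at day 0 and to 383 to 616 TPM after culture. The part of these markers was not tested.

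In SCA1+Msc, 1 of the 54 members was called between co-culture with DCs and culture alone, against 0.0937% of all genes higher and 0.0331% lower. This was Il6, at 76.8 and 59.9 TPM in co-culture against 16.2 and 22.7 TPM alone, a 3.52-fold difference in the means (1.77, SE 0.21, limma adjusted p = 0.030). Both co-cultured samples were above both samples cultured alone and far under day 0. Hepatocyte markers summed to 438 and 0.446 TPM in the co-cultured samples, against 19.1 and 2.20 TPM alone. Ductal markers summed to 553 and 272 TPM, against 211 and 234 TPM alone. Replicate 1 thus had the most of both markers and the higher Il6, and the part of these markers was not tested. The call was lost without either sample cultured alone (limma adjusted p = 0.16 without replicate 1 and 0.064 without replicate 2), without co-cultured replicate 1 (limma adjusted p = 0.17) and with a pseudocount of 0.1 (limma adjusted p = 0.075). Of the other members, 5 had an unadjusted p under 0.05, among them Il17d, at 4.40 and 7.60 against 18.0 and 13.6 TPM. Over all 18136 genes, 1263 had an unadjusted p under 0.05. Il33 read 283 and 403 TPM in co-culture and 179 and 284 TPM alone, and Il6st 520 and 554 against 691 and 637 TPM, neither of which was called.

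**Figure D5:**
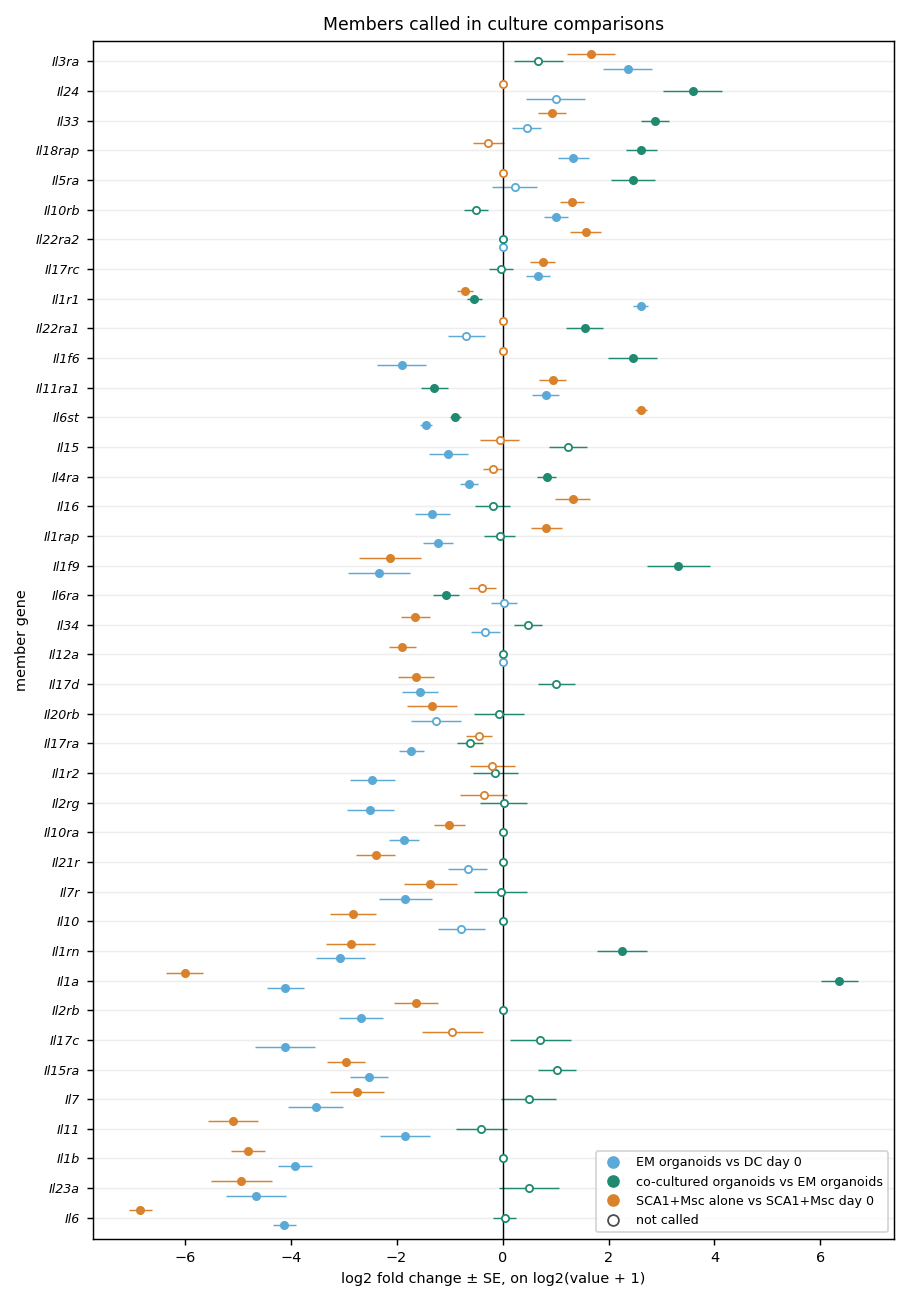
Differences in log2(TPM + 1) for EM organoids against DCs at day 0, co-cultured against EM organoids and SCA1+Msc alone against day 0, for the members called in at least 1 of them, with bars for the standard error and open circles where the member was not called. Il6 lies far to the left for SCA1+Msc alone against day 0, and Il1a to the right for co-cultured against EM organoids; where a group is at 0, the fitted value depends on the added 1.

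The lists of genes that act with the members were counted in culture too. Of the 17 MyD88 and NF-κB genes, 3 were higher and 9 lower in EM organoids than in DCs at day 0, with a median of -1.37 against 0.12 over all genes, where 27.1% were higher and 17.2% lower. In SCA1+Msc alone 2 were higher and 9 lower than at day 0, with a median of -1.04 against 0.19 over all genes, where 27.4% were higher and 17.5% lower. Nfkbia, which encodes the NF-κB inhibitor that NF-κB itself induces, fell from 6266 and 5475 TPM to 499 and 471 TPM in EM organoids and from 7554 and 7640 TPM to 278 and 314 TPM in SCA1+Msc. Of the 15 JAK, STAT and SOCS genes, 2 were higher and 9 lower in EM organoids, with a median of -0.81, and 2 higher and 8 lower in SCA1+Msc alone, with a median of -0.90, against the same shares and medians of all genes. Socs3 fell from 1226 and 1088 TPM to 304 and 315 TPM in the latter. Lif, another ligand that signals through Il6st, fell from 574 and 411 TPM to 7.02 and 4.18 TPM in EM organoids. Between co-cultured and EM organoids, 3 of the 15 JAK, STAT and SOCS genes were higher and 2 lower, against 5.73% and 7.21% of all genes. Stat3 was lower, at 51.1 and 43.8 TPM against 90.8 and 91.3 TPM, and Jak2 was higher, at 11.5 and 10.6 TPM against 5.82 and 4.54 TPM. Of the ligands and receptors without an Il name, 16 were tested in this comparison, with 2 higher (Lif and Csf2) and 2 lower (Osmr and Lifr), Lifr at 0.995 and 1.48 TPM against 15.3 and 14.0 TPM (-2.81, SE 0.25, limma adjusted p = 1.2e-04). In SCA1+Msc, no gene of the 3 lists was called by limma between co-culture and culture alone. An unadjusted p under 0.05 was found for 7 listed genes, and for 1263 of all 18136 genes.

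Il13ra1, a chain of the IL-13 receptor, was present in all 24 samples. It lay between 84.5 and 289 in homeostasis, with DCs at 265, 289 and 227 and PDGFRa+SCA1+ cells at 121, 104 and 191, and no stromal fraction was called against DCs. In the transwell experiment it was lower in SCA1+Msc at day 0 than in DCs at day 0, at 126 and 113 against 199 and 215 TPM (-0.79, SE 0.14, limma adjusted p = 0.0012). It was also lower in co-cultured organoids than in those DCs, at 154 and 145 TPM (-0.47, SE 0.14, limma adjusted p = 0.023), a call lost without any 1 of these 4 samples and on RPKM as deposited. Il34, known as a ligand of the CSF-1 receptor, read 53.2 and 32.3 TPM in DCs at day 0, 31.1 and 34.8 TPM in EM organoids and 57.5 and 37.5 TPM in co-cultured organoids, with no call among these 3 groups. In SCA1+Msc it fell from 57.6 and 44.6 TPM at day 0 to 16.2 and 14.8 TPM alone (-1.65, SE 0.27, limma adjusted p = 8.9e-04). Il17re, which the stromal samples of homeostasis held at most as a trace, read 0 and 4.58 TPM in SCA1+Msc at day 0 and 52.2 and 46.1 TPM in EM organoids. Of the 83 members, 29 never reached the level or call needed to be named with values, including the 12 that were listed at 0 throughout.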

How the data were processed

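RNA of 24 samples was made into libraries with Smart-seq2 and Nextera XT and sequenced as single reads. Per the labels and methods, the authors aligned the reads with STAR 2.5.0a to GRCm38 (mm10) and counted them over genes with featureCounts 1.6.0, without use of strand. Reads from the stretch where Il1b and its antisense Il1bos overlap thus cannot be told apart. The authors deposited RPKM for the 12 transwell samples, here scaled to TPM by dividing each column by its sum. For the 12 homeostasis samples they deposited a normalized score named TPM. Its columns sum to between 847270 and 1173511, since the totals of the 12 columns were reused in turn down the table, which changes each value to between 0.722 and 1.39 times its TPM and blurs small differences. Because of this the unit is treated as a score, not as the TPM that had been planned for, and the same test was used. The 4 columns of the authors' means were not used.

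The lowest values are whole multiples of what 1 read is worth (within 0.02 of a read, up to 20 reads) in 92.9% of homeostasis and 93.1% of transwell values, which gave the depths. Floors of 3 reads per library cover counting error only.

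Values were compared as log2(value + 1) with limma 3.58.1 in R 4.3.3, with the groups of an experiment fitted together on its 12 samples, a trended prior and two-sided tests. A group listed at 0 adds no spread to this shared fit. For members at 0 in a whole group, the p-values thus do not measure the spread of the other groups alone. Genes were kept if they reached 1 in 3 or more homeostasis or 2 or more transwell samples, and p-values were adjusted by Benjamini-Hochberg over all genes that passed. The 11 comparisons are those given in the text. Figures and tables were made with Python 3.11.15, numpy 2.4.6, pandas 2.3.3 and matplotlib 3.10.9, and the fits were tested on simulated data, where the share of wrong calls was above the threshold set and the homeostasis fit missed most of the moderate changes, so an uncalled member is not shown to be equal. The alternatives were a pseudocount of 0.1, no filter, quantile normalization, RPKM as deposited, the reuse of totals undone, a replicate block and leaving out each sample.

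In homeostasis a letter marks the same mouse in every population, so the letters pair the samples. The residuals of same-mouse samples correlated at 0.0102 to 0.0973 across genes. Promoter sequences are RefSeq GRCm38.p6, which matched 66 of the 83 members. Members were named with values if a group mean reached 5 or if a call came with groups that did not overlap. The members and all gene lists were chosen with earlier results of these data known.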

Additional observations from a re-analysis of the deposited data

How the results depend on the processing

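Over the 11 comparisons limma made 197 calls of members, of which 142 held in every alternative and 55 were lost in at least 1. None turned direction in 1891 recomputed calls. Calls were lost most often when a sample was left out (140 of 918), then with a pseudocount of 0.1 (22 of 197), no filter (14), the replicate block (13), quantile normalization (11), the reuse of totals undone (3 of 65) and RPKM as deposited (3 of 120). Leaving out a transwell sample leaves 1 sample in a group, which is then assumed to vary like the other groups.

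With each sample left out in turn, the called members numbered 0 to 2 for PDGFRa+SCA1+ against PDGFRa+SCA1- cells (0 with all samples), 7 to 12 for co-cultured against EM organoids (14) and 0 to 1 for co-cultured SCA1+Msc against SCA1+Msc alone (1). In the last comparison 2 members were called without the filter (1 higher and 1 lower), 1 with a pseudocount of 0.1 (lower, and not Il6) and 0 with the replicate block. The causes were not tested.

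Transwell samples share a replicate number only, with residual correlations between 0.0043 and 0.030 over 2 pairs. As a replicate block these numbers ended the calls of Il15 in EM organoids, Il20rb in co-cultured organoids against DCs, Il1r1 in co-cultured against EM organoids, Il1b and Il2rg in SCA1+Msc at day 0, Il1rap, Il20rb and Il7r in SCA1+Msc alone and Il6 in co-cultured SCA1+Msc (limma adjusted p = 0.090). In homeostasis the block by mouse ended no other call than the 4 given with it. Quantile normalization moved the median of all genes by more than 0.1 in 6 comparisons, the most for PDGFRa+SCA1- cells against DCs (from -0.47 to -0.13). A member listed at 0 in a library is bounded by its floor of 3 reads, and groups of 2 or 3 samples limit the precision of every difference.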
